A study of Mus musculus with 4 samples.

Results

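The genes described here are 3 receptor protein tyrosine phosphatases, Ptprd, Ptprf and Ptprs, the 6 members of the Slitrk family, Slitrk1, Slitrk2, Slitrk3, Slitrk4, Slitrk5 and Slitrk6, and the interleukin-1 receptor accessory protein-like gene Il1rapl1. They were chosen by symbol, and all 10 were found among the 31053 genes of the deposited count matrix. The data are single-nucleus RNA sequencing of the superior colliculus, a midbrain centre of visual and other sensory input, from C57BL/6J mice at embryonic day 19 (E19) and postnatal days 4, 8 and 21 (P4, P8, P21). Each stage was 1 library of nuclei from several animals pooled, with no treatment and no genetic change named in the labels. The authors' annotation placed 9724 nuclei in 9 classes and 35 subtypes, among them 4093 excitatory (subtypes EN1 to EN13) and 3459 inhibitory neurons (IN1 to IN12).

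The leukocyte common antigen-related receptor phosphatases are adhesion molecules of axons and presynaptic terminals, with immunoglobulin and fibronectin domains outside the cell and phosphatase domains inside. They bind partners on the facing membrane, among them the Slitrk proteins, which carry leucine-rich repeats, and Il1rapl1, a postsynaptic protein whose loss in humans causes X-linked intellectual disability. Such pairs organise the differentiation of excitatory and inhibitory synapses, and the receptors also bind proteoglycans of the extracellular matrix, which act on axon growth.

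Levels are given as unique molecular identifiers (UMIs) of a gene per 1000000 UMIs summed over the nuclei of one class or subtype in one library (CPM), with exact Poisson intervals at the 95% level. Changes are log2 ratios after 5 CPM were added to each level, so that they are understated for genes of low level, and a gene is called where the ratio passes a fold of 1.5. The libraries held between 2249 and 2585 nuclei and between 19277512 and 31325079 UMIs, and median depth per nucleus was lowest at E19 and highest at P21. With 1 library per stage there was no replicate check and no test, so that intervals cover counting error only and every difference between stages is a difference between 2 libraries. Excitatory marker genes summed to between 179.3 and 289.3 CPM in the excitatory class and to between 12.7 and 49.3 CPM in the inhibitory class, and inhibitory markers were likewise higher in the inhibitory class in each library. Il1rapl1, Slitrk2 and Slitrk4 are X-linked, and the female-specific transcript Xist had a UMI in 0.967% of the E19 nuclei and in 46.0%, 40.7% and 68.1% of those at P4, P8 and P21; its part in the levels of these genes was not tested. From the summed values alone, fewer nuclei expressing a gene within a class and less RNA per nucleus cannot be told apart. For Ptprs, 97.2% of excitatory nuclei at E19 and 98.7% at P21 held a UMI, and 95.7% and 97.8% of inhibitory nuclei. After nuclei were thinned to the same number of UMIs, these shares were 84.4% and 60.4% in excitatory and 84.1% and 67.9% in inhibitory neurons. The part of each in the changes was not tested. Of all barcodes, 9 occurred in more than one library.

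The genes differ widely in structure. On GRCm38, Ptprd spans 2270.72 kb of chromosome 4 and Il1rapl1 1374.78 kb of the X chromosome, whereas Ptprf covers 83.2 kb of chromosome 4 and Ptprs 64.1 kb of chromosome 17. Each Slitrk gene carries its protein in 1 coding exon and is between 5.36 and 12.1 kb long, against 35 coding exons in Ptprd, 31 in Ptprf, 32 in Ptprs and 10 in Il1rapl1. Because reads were aligned to a pre-mRNA reference, which includes introns, long genes can collect more UMIs. Levels of different genes can therefore not be set side by side as they stand. Values per length are given as a description, and whether counts of these 3′ libraries scale with either length was not tested. In excitatory neurons at E19 the level per 100 kb of gene body was 1006 CPM for Ptprs, 249.7 for Ptprd, 171.0 for Ptprf and 134.3 for Il1rapl1. Per kb of exon the order was another one, with 248.5 CPM for Ptprd, 197.7 for Il1rapl1, 43.0 for Ptprs and 15.6 for Ptprf. The Slitrk genes ran from 35.2 CPM (Slitrk2) to 828.5 CPM (Slitrk1) per 100 kb of gene body, and from 0.526 to 8.29 CPM per kb of exon for the same genes. The order between genes therefore depended on the length used, and the comparisons below are made within a gene.

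The receptors Ptprf and Ptprs fell in neurons of both classes while Il1rapl1 rose, and the remaining 7 genes stayed within the fold. This depended on the 5 CPM added for Slitrk2, which in excitatory neurons measured 4.25 and 7.19 CPM in the first and last library and had a log2 ratio of 0.40, and of 0.64 with 1 CPM added, which made 4 called genes in that class. From E19 to P21, 3 of the 10 genes passed the fold in excitatory neurons and the same 3 in inhibitory neurons, 1 higher and 2 lower in each. Among all genes that reached 20 CPM in either library, 34.3% passed the fold in excitatory neurons (12.8% higher and 21.5% lower) and 35.9% in inhibitory neurons (14.6% higher and 21.4% lower). With the libraries scaled by the median of ratios in place of total UMIs, all log2 ratios of this comparison moved up by 0.13 in excitatory and 0.12 in inhibitory neurons, which gave 17.2% higher and 17.6% lower in the former and 18.5% and 18.2% in the latter, with the counts of the 10 genes unchanged. The members' share was close to that of all genes. Step by step, no member passed the fold from E19 to P4 (6.42% of all genes in excitatory and 7.27% in inhibitory neurons did), 1 in excitatory and 0 in inhibitory neurons did from P4 to P8 (6.1% and 4.15% of all genes), and 2 in each class from P8 to P21 (17.6% and 18.9%). Slitrk2 and Slitrk6 were below 20 CPM in all neuron comparisons, so 8 of the 10 would have passed that filter.

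**Figure D1:**
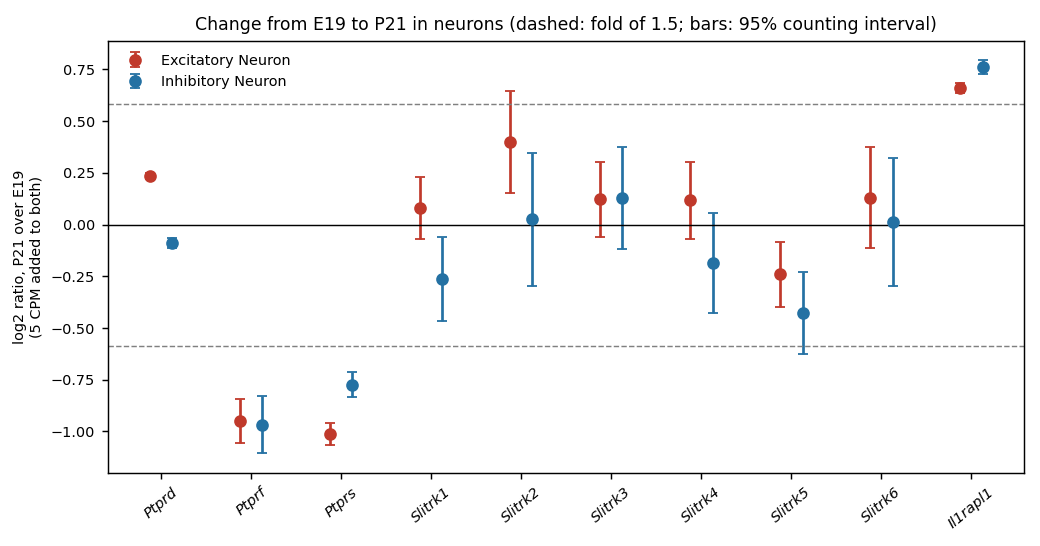
Log2 ratio of CPM at P21 over E19 for the 10 genes in excitatory (red) and inhibitory (blue) neurons, with 5 CPM added to both values; bars are 95% counting intervals and dashed lines mark a fold of 1.5. Ptprf and Ptprs lie below the lower line and Il1rapl1 above the upper line in both classes; the other genes lie between the lines.

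Ptprs encodes the receptor phosphatase sigma, known both as a synapse organiser and as a receptor for chondroitin and heparan sulfate proteoglycans. Its level in excitatory neurons was 644.6, 601.9, 549.03 and 317.0 CPM in order of stage, and in inhibitory neurons 678.02, 660.03, 617.3 and 394.5 CPM. Each later library was lower than the one before in both classes, and the steepest step lay between P8 and P21. The log2 ratio of P21 over E19 was -1.01 (95% counting interval -1.07 to -0.96) in excitatory and -0.77 (-0.84 to -0.71) in inhibitory neurons. The step from P8 to P21 alone gave -0.78 and -0.64, past the fold in both classes.

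The fall of Ptprs after P8 was found within every neuron subtype that could be followed. In 23 subtypes with at least 20 nuclei at both stages, the P21 level was lower in 23, and the counting interval lay below 0 in 23. The log2 ratio ranged from -1.02 in EN9 to -0.42 in IN9, with a median of -0.74. Of all genes that reached 20 CPM in a subtype, 5.39% were lower at P21 than at P8 in all 23. From E19 to P21 both Ptprs and Ptprf were lower in 23 of 23, as 8.55% of all genes were, and the interval lay below 0 in 20 subtypes for Ptprs and 18 for Ptprf. Both shares cover genes down to 20 CPM and were not matched to the levels of Ptprs and Ptprf. Counting error, which can turn the sign in a subtype, is larger for genes of fewer UMIs. Between subtypes of 1 library the level ranged 2.08-fold at E19, from 441.6 CPM in IN9 to 918.7 CPM in EN9, and 1.58-fold, 1.62-fold and 1.74-fold at P4, P8 and P21, with other subtypes at the ends.

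Ptprf encodes the receptor phosphatase LAR, the founding member of this family. It measured 142.3, 139.6, 115.8 and 71.3 CPM at E19, P4, P8 and P21 in excitatory neurons, and 131.2, 137.9, 113.9 and 64.7 CPM in inhibitory neurons. The E19 and P4 libraries were alike in both classes and the P21 library was the lowest. The log2 ratio of P21 over E19 was -0.95 (-1.06 to -0.84) in excitatory and -0.97 (-1.10 to -0.83) in inhibitory neurons. Again the step from P8 to P21 passed the fold, at -0.66 and -0.77. The level was lower at P21 than at P8 in 23 of 23 subtypes, from -1.55 in EN12 to -0.12 in EN5, and the interval lay below 0 in 17 of them. Within a library the highest subtype was IN11 at E19 (177.3 CPM) and P4 (195.7 CPM), IN6 at P8 (150.2 CPM) and IN12 at P21 (95.8 CPM), and the lowest were EN9, IN12, EN5 and IN3 in turn. In each library the counting interval of the highest subtype held the value of the next. At E19 it was 115.8 to 259.8 with EN13 at 177.2 CPM, and at P21 60.7 to 143.7 with EN13 at 93.9 CPM. IN12, lowest at P4, had 13 UMIs there (45.8 to 147.0 CPM).

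**Figure D2:**
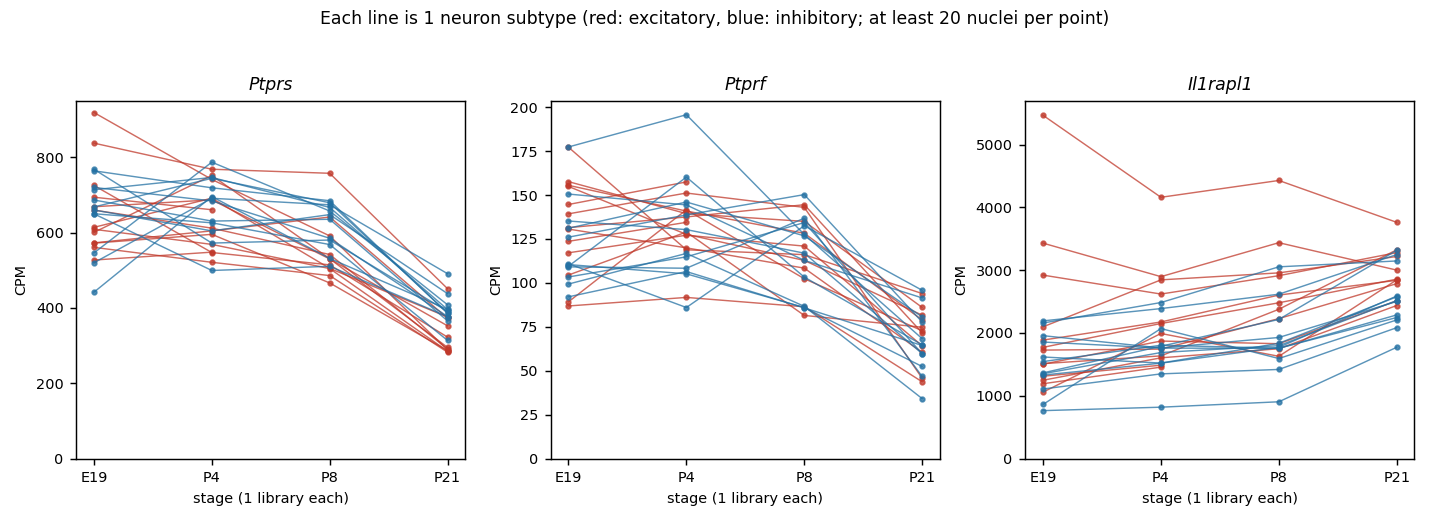
CPM of Ptprs, Ptprf and Il1rapl1 at the 4 stages in each neuron subtype with at least 20 nuclei; each line is 1 subtype, red excitatory and blue inhibitory. All 23 lines for Ptprs and all 23 for Ptprf go down from P8 to P21, while 21 of 23 lines for Il1rapl1 end above their E19 value, the uppermost line (EN6) being one of the exceptions.

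The bases upstream of the annotated starts of these co-falling receptors are shown because both genes declined together, and that of Il1rapl1 because it went the other way. Each is the 250 bases before the RefSeq transcript start on GRCm38.p6, read 5′ to 3′ on the gene's own minus strand, with matches to a motif in capitals. The motifs searched on both strands were the E-box CACGTG, the cyclic AMP response element TGACGTCA, the GC box GGGCGG, the CCAAT box CCAAT and the TATA box TATAAA, and they were chosen after these sequences had been seen.
Ptprf, chr4:118291398-118291647: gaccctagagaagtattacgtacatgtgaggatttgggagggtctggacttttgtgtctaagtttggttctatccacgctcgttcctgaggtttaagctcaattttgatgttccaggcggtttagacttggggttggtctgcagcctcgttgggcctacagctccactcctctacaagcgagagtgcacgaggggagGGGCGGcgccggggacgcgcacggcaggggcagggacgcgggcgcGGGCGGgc
Ptprs, chr17:56476481-56476730: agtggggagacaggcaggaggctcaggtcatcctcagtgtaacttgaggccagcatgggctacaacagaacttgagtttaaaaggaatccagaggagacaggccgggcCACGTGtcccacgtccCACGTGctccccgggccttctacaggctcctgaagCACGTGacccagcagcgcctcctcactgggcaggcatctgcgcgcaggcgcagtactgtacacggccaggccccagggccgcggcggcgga
Il1rapl1, chrX:88115949-88116198: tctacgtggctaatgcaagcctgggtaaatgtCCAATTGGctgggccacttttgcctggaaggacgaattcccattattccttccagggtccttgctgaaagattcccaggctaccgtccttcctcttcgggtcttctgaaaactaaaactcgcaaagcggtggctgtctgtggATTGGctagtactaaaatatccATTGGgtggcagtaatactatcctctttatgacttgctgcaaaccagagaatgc
Ptprf held 2 GC boxes, a motif present in 32.7% of the 32851 RefSeq windows of the same length, and 18 CpG dinucleotides against a median of 6. Ptprs held 3 E-boxes, a motif in 6.02% of windows, and 15 CpG dinucleotides, while the window of its second annotated start, chr17:56462222-56462471, held no E-box and 3 GC boxes. Il1rapl1 held 4 CCAAT boxes, counted on both strands, a motif in 33.9% of windows, and 6 CpG dinucleotides. Ptprs and Ptprf thus shared none of the 5 motifs in these first windows. RefSeq windows were found for 8 of the 10 genes. A match is a run of letters and not a shown binding site.

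Ptprd encodes the receptor phosphatase delta, the receptor to which Il1rapl1 and Slitrk3 are known to bind. It measured 5670.1, 5914, 6604 and 6669.8 CPM at E19, P4, P8 and P21 in excitatory neurons, and 4328, 4408, 4594 and 4069 CPM in inhibitory neurons. The excitatory level was above the inhibitory one in each library, and no step between libraries reached the fold in either class. The ratio of P21 over E19 was 0.23 (0.22 to 0.25) in excitatory and -0.09 (-0.11 to -0.07) in inhibitory neurons, and the latter became 0.03 under median-of-ratios scaling. A gene on the opposite strand, Gm42303, overlaps Ptprd, and the use of strand in counting is not given in the sources used here. Their reads may therefore not be told apart. From E19 to P21 Ptprs fell past the fold in both classes, while Ptprd stayed within it. The log2 ratio of Ptprd over Ptprs widened in excitatory neurons from 3.14 at E19 through 3.30 and 3.59 to 4.40 at P21, and in inhibitory neurons from 2.67 to 3.37. This ratio includes the difference in gene length, and whether the part of length is alike at every stage was not tested. From E19 to P21, genes of at least 500 kb had median log2 ratios of 0.11 in excitatory and 0.07 in inhibitory neurons. Over all genes tested the medians were -0.06 and -0.04.

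**Figure D3:**
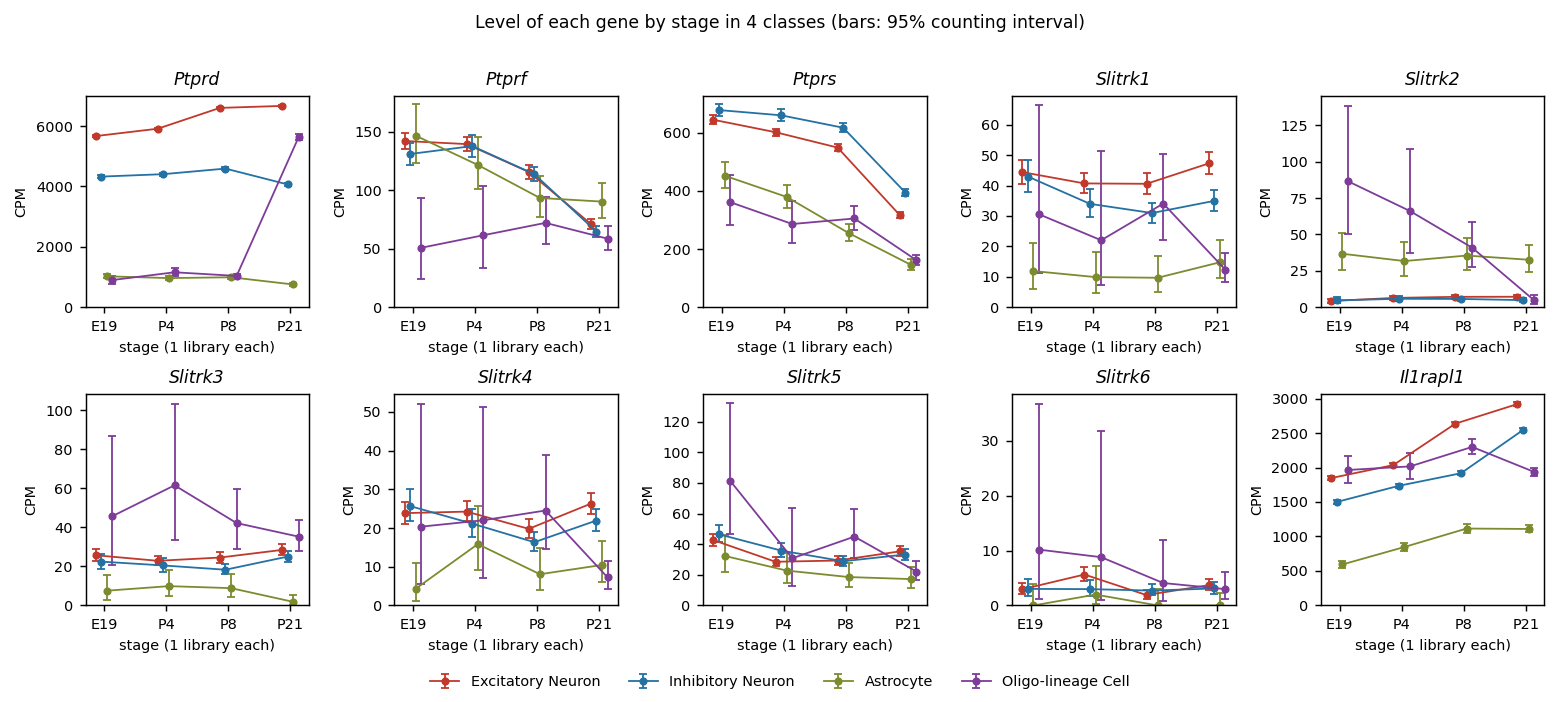
CPM of each of the 10 genes at E19, P4, P8 and P21 (1 library each) in excitatory neurons, inhibitory neurons, astrocytes and cells of the oligodendrocyte lineage, with 95% counting intervals; every panel has its own axis from 0. Ptprs falls with stage in neurons and astrocytes, Ptprd in the oligodendrocyte lineage reaches the level of neurons at P21 alone, and Slitrk2 lies above the neurons in astrocytes at every stage.

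Between neuron subtypes Ptprd varied far more than between stages. Over nuclei of all libraries it ran from 2862 CPM in IN2 to 13702 CPM in EN6, a 4.79-fold range, with a median of 4979 over 25 subtypes. EN6 held 236 nuclei and carried Slc17a6, the vesicular glutamate transporter of midbrain neurons, at 198.8 CPM against 12.8 CPM of the GABA-synthesising enzyme gene Gad1. Ptprd in EN6 measured 11545, 14088, 14618 and 12985 CPM at E19, P4, P8 and P21, the highest of all neuron subtypes in each of the 4 libraries. The subtypes next below it were EN3 at E19, P4 and P8, with 9965 CPM at E19, and EN12 at P21, with 12390.2 CPM, whose counting interval (12194 to 12589) ended below that of EN6 (12767 to 13205).

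Subtypes kept their order in Ptprd over neighbouring stages less closely at both ends of the series than in the middle. The Spearman rank correlation of subtype levels, a description over subtypes that share their library, was 0.89 between E19 and P4 over 25 subtypes, 0.98 between P4 and P8 over 23, 0.89 between P8 and P21 and 0.65 between E19 and P21. From E19 to P21 Ptprd was higher in 13 and lower in 10 of 23 subtypes. In IN4 the values were 1519, 2880.3, 2954 and 3340.5 CPM at E19, P4, P8 and P21, a log2 ratio of 1.14 over the whole span. IN6 moved the other way, with 9527, 7100.2, 7767 and 5356 CPM at E19, P4, P8 and P21, a log2 ratio of -0.83.

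Il1rapl1 rose in neurons. Its level in excitatory neurons was 1847, 2035, 2636 and 2921 CPM at E19, P4, P8 and P21, and in inhibitory neurons 1501, 1735, 1917 and 2544 CPM. Each later library was higher than the one before in both classes. The log2 ratio of P21 over E19 was 0.66 (0.64 to 0.68) in excitatory and 0.76 (0.73 to 0.79) in inhibitory neurons, and no single step passed the fold. When the excitatory subtypes were weighted alike the ratio was 0.42, below the fold. Genes of at least 500 kb were higher at P21 past the fold in 23.2% of 211 cases in excitatory and 22.6% of 212 in inhibitory neurons, and the 269 genes tested on the X chromosome in 17.5% and 19.3%. The medians in excitatory neurons were 0.11 for the long genes and -0.05 for the X-linked ones.

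The rise was spread over subtypes, and the subtype with the highest level was an exception. Il1rapl1 was higher at P21 than at E19 in 21 of 23 subtypes, with the interval above 0 in 21 and the fold passed in 15, the largest ratio being 1.42 in EN12. In EN6 it measured 5465, 4159.9, 4428 and 3761 CPM at E19, P4, P8 and P21, a log2 ratio of -0.54 with its interval below 0. The other exception was EN5, with 3429.7 CPM at E19 and 3000.4 at P21. EN6 was nevertheless first among neuron subtypes in all 4 libraries and IN6 last in all 4, at 762.7, 817.8, 903.8 and 1772 CPM. The ratio of the highest to the lowest subtype was 7.17 at E19 and 2.12 at P21.

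EN6 led the neuron subtypes in 3 of the 10 genes in every library: Ptprd, Il1rapl1 and Slitrk3. Of all genes that reached 20 CPM in a subtype, 0.429% were highest in EN6 in all 4 libraries. EN6 was picked after the values of the members were seen, so this share cannot show an excess among them. The share of genes led in all 4 libraries by the same subtype, whichever it was, was not counted. The share for EN6 was also not matched to the levels of the 3 genes. How subtypes were defined is not given in the sources used here, and they may rest on the same values. The lead of EN6 is therefore a description and was not tested. Slitrk3, known as a postsynaptic organiser of inhibitory synapses, measured 79.3, 63.3, 56.4 and 59.3 CPM at E19, P4, P8 and P21 in EN6, from between 16 and 65 UMIs per library. Its median over subtypes was 23.4 CPM in nuclei of all libraries. In the E19 library the interval of EN6 (45.3 to 128.7) held the value of the next subtype, IN6, at 46.4 CPM. At P4 the interval of EN6 (39.2 to 96.7) held that of IN9, at 40.4 CPM. IN10 was next at P8 and P21, and its intervals (22.6 to 54.6 and 27.0 to 68.2) overlapped those of EN6 (43.5 to 71.9 and 45.5 to 76.1). In nuclei of all libraries, no pair of the 10 genes followed each other closely over the 25 subtypes. Pearson correlations of log2 levels lay between -0.39 (Ptprf with Il1rapl1) and 0.39 (Slitrk3 with Il1rapl1). Subtypes differ in their mix of stages, and the part of stage in these correlations was not tested.

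**Figure D4:**
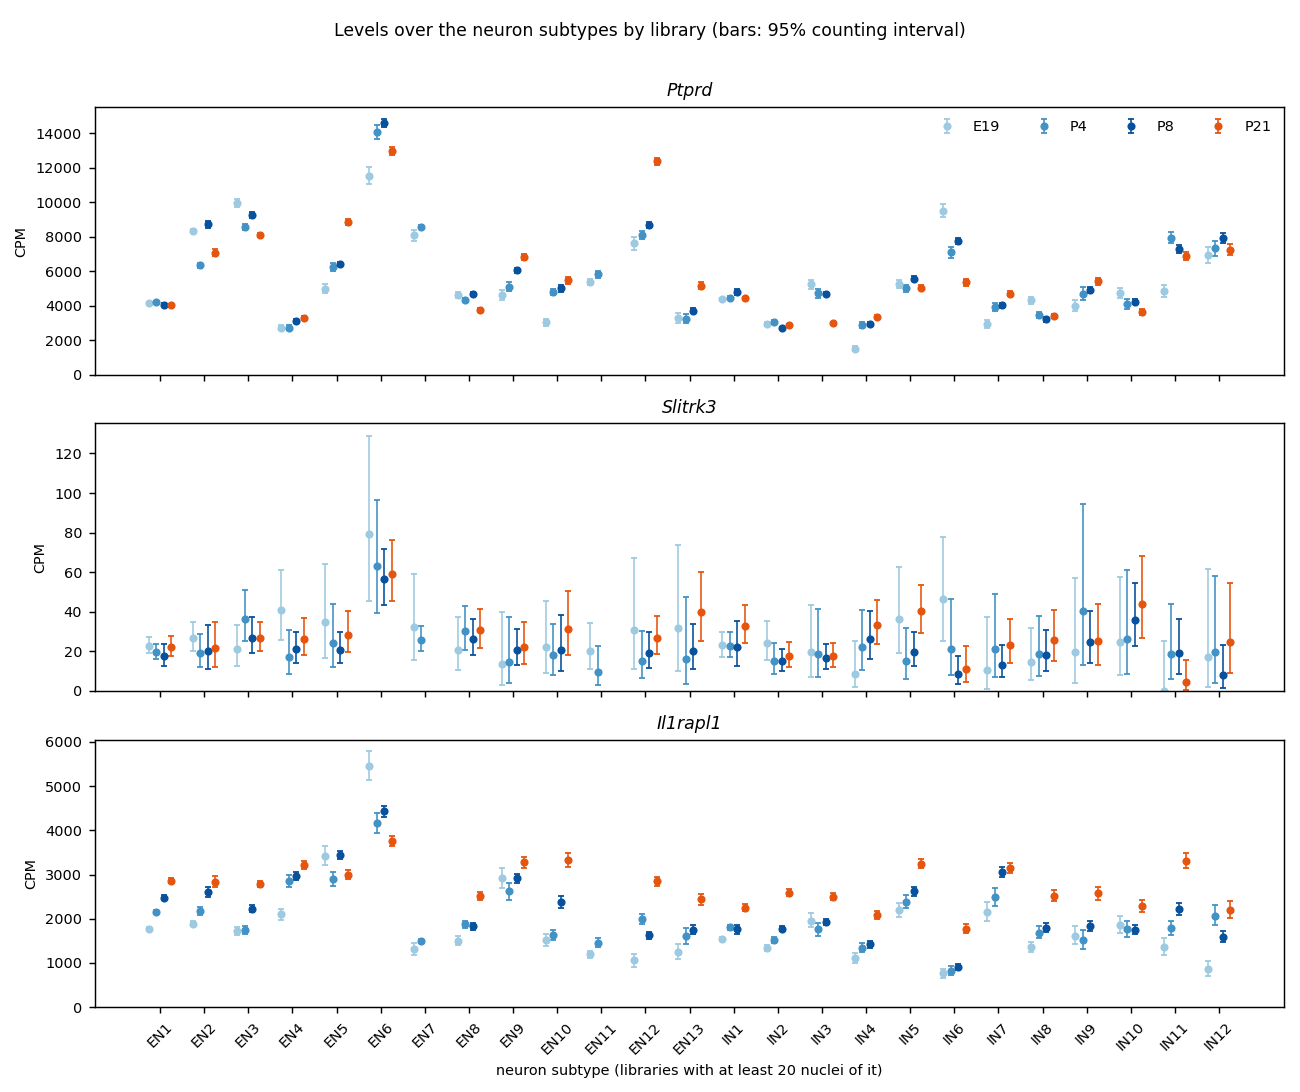
CPM of Ptprd, Slitrk3 and Il1rapl1 in each neuron subtype, 1 point per library with at least 20 nuclei of the subtype, coloured by stage, with 95% counting intervals. EN6 stands at the top in every library for all 3 genes, with EN12 close below it for Ptprd at P21. For Slitrk3 the interval of EN6 overlaps that of the next subtype in each library. The Il1rapl1 value of EN6 is highest at E19 (5465 CPM) and lowest at P21 (3761 CPM).

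None of the Slitrk genes passed the fold between E19 and P21 in either neuron class with 5 CPM added, and Slitrk2 in excitatory neurons did with 1 CPM added. Summed over the 6 genes, their level in excitatory neurons was 143.9, 128.4, 123.3 and 148.2 CPM at E19, P4, P8 and P21, and in inhibitory neurons 145.3, 120.2, 102.9 and 123.2 CPM. P8 was the lowest library in both classes, by a margin smaller than the fold. Slitrk1, the founding member, which is linked to obsessive and tic disorders, measured 44.4, 40.7, 40.6 and 47.2 CPM in excitatory and 42.9, 34.0, 31.0 and 34.9 CPM in inhibitory neurons. Slitrk5, which is also known as a modulator of neurotrophin receptor trafficking, went from 42.7 CPM at E19 to 28.5, 29.3 and 35.3 CPM in excitatory and from 46.5 to 35.9, 28.9 and 33.3 CPM in inhibitory neurons. For Slitrk5 E19 was thus the highest library in both classes, at ratios of P21 over E19 of -0.24 (-0.40 to -0.08) and -0.43 (-0.63 to -0.23); with each nucleus thinned to 3000 UMIs the former became 0.06. Slitrk3 and Slitrk4 stayed between 16.3 and 28.5 CPM in every library of both classes, and Slitrk2 between 4.25 and 7.19 CPM.

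Individual Slitrk genes had different leading neuron subtypes. Over all libraries Slitrk1 was at 57.6 CPM in EN5 (49.6 to 66.4). That interval held EN9 at 57.0, IN5 at 55.5 and EN8 at 54.5 CPM. Within libraries EN5 was first at E19 and P21, EN9 at P4 and IN5 at P8. Slitrk4 was highest in IN12, at 40.6 CPM (28.5 to 56.3) from 36 UMIs, though EN6 led at E19. The next subtype for Slitrk4, EN8, stood at 29.9 CPM, inside that interval. Slitrk5 was highest in IN10, at 59.0 CPM (47.2 to 72.9) from 86 UMIs. The values in IN10 were 78.7, 57.4, 55.7 and 55.2 CPM at E19, P4, P8 and P21. IN10 led in the E19 and P8 libraries only, with IN3 above it at P4 (75.7 CPM) and EN5 at P21 (60.5 CPM). The next subtype for Slitrk5 over all libraries, EN5, stood at 48.6 CPM, inside that interval. Slitrk6, known for its part in the innervation of the inner ear, was highest in EN7 among neurons, where 60 UMIs in 47 of 226 nuclei gave 19.2 CPM (14.6 to 24.7), against a median of 2.84 CPM over subtypes. Of the EN7 nuclei 33 were from E19, 191 from P4 and 1 each from P8 and P21. Within the E19 library EN7 stood at 16.1 CPM from 5 UMIs and IN9 next at 12.99 CPM from 2, with overlapping intervals. Within the P4 library EN7 stood at 19.8 CPM (14.9 to 25.8) from 55 UMIs and IN7 next at 12.6 CPM (2.60 to 36.9) from 3. The excitatory class as a whole showed 2.95, 5.64, 1.90 and 3.70 CPM of Slitrk6, a step past the fold from P4 to P8 (-0.63) as in 6.1% of all genes, and without EN7 the same values were 2.58, 2.39, 1.90 and 3.71 CPM.

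None of the 10 genes separated inhibitory from excitatory neurons by the fold in all 4 libraries, as 2.56% of all genes did. Smaller differences kept their sign in several genes. Ptprd was lower in inhibitory neurons, with log2 ratios of -0.39, -0.42, -0.52 and -0.71 in order of stage, the last being past the fold. Il1rapl1 was lower as well, at -0.30, -0.23, -0.46 and -0.20. Ptprs was higher in inhibitory neurons, at 0.07, 0.13, 0.17 and 0.31. Ptprf (-0.11, -0.02, -0.02 and -0.13), Slitrk1 (-0.04, -0.23, -0.34 and -0.39) and Slitrk3 (-0.16, -0.13, -0.34 and -0.16) were also lower in inhibitory neurons in each library. The counting interval lay below 0 in 1 library for Ptprf, 3 for Slitrk1 and 1 for Slitrk3. With nuclei thinned to the same number of UMIs, Ptprf stayed lower in each library. Slitrk1 was then higher in inhibitory neurons at E19 (43.83 against 43.65 CPM) and P21 (48.07 against 46.50 CPM). Slitrk3 was higher at P4 (21.89 against 20.52 CPM), and both genes were lower in the remaining libraries. How many of all genes kept their sign was not counted.

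Slitrk2 was higher in astrocytes than in neurons in each library. In astrocytes it measured 36.7, 31.7, 35.5 and 32.6 CPM at E19, P4, P8 and P21, from between 32 and 53 UMIs per library, against 4.40, 6.20, 6.47 and 6.18 CPM in all neurons of the same libraries. The log2 ratio of astrocytes over neurons was 2.15, 1.71, 1.82 and 1.75. Of all genes 15.6% were higher in astrocytes than in neurons past the fold in all 4 libraries, and 1 of the 10 was. The protoplasmic subtype carried 42.1, 40.8, 41.2 and 35.7 CPM, whereas fibrous astrocytes had 9.27 CPM over all libraries from 8 UMIs. Astrocytes were lower past the fold in all 4 libraries in 4 of the 10 genes, Ptprd, Slitrk1, Slitrk3 and Il1rapl1, as in 12.6% of all genes.

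Oligodendrocyte precursors also held more Slitrk2 than neurons, with a lower value in each later library. The level in that subtype was 83.9, 71.3, 46.8 and 23.4 CPM at E19, P4, P8 and P21, from 16, 12, 24 and 7 UMIs. The intervals of the first and last library, 48.0 to 136.3 and 9.40 to 48.2 CPM, overlapped at their ends. Myelinating oligodendrocytes, of which 187 of 188 nuclei were from P21, had 2 UMIs of Slitrk2, or 1.28 CPM. Slitrk2 and Slitrk3 were the members higher in precursors than in neurons past the fold in all 4 libraries, as 8.56% of all genes were, and Ptprd was lower in them past the fold in all 4, as 8.29% were. The Slitrk3 values in precursors were 47.2, 59.4, 42.9 and 43.4 CPM from between 9 and 22 UMIs, and the interval of the log2 ratio to neurons included 0 at E19 and P21. Il1rapl1 in precursors, at 1946, 2205, 2443 and 2818 CPM, was within 0.18 on the log2 scale of the neurons of each library.

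**Figure D5:**
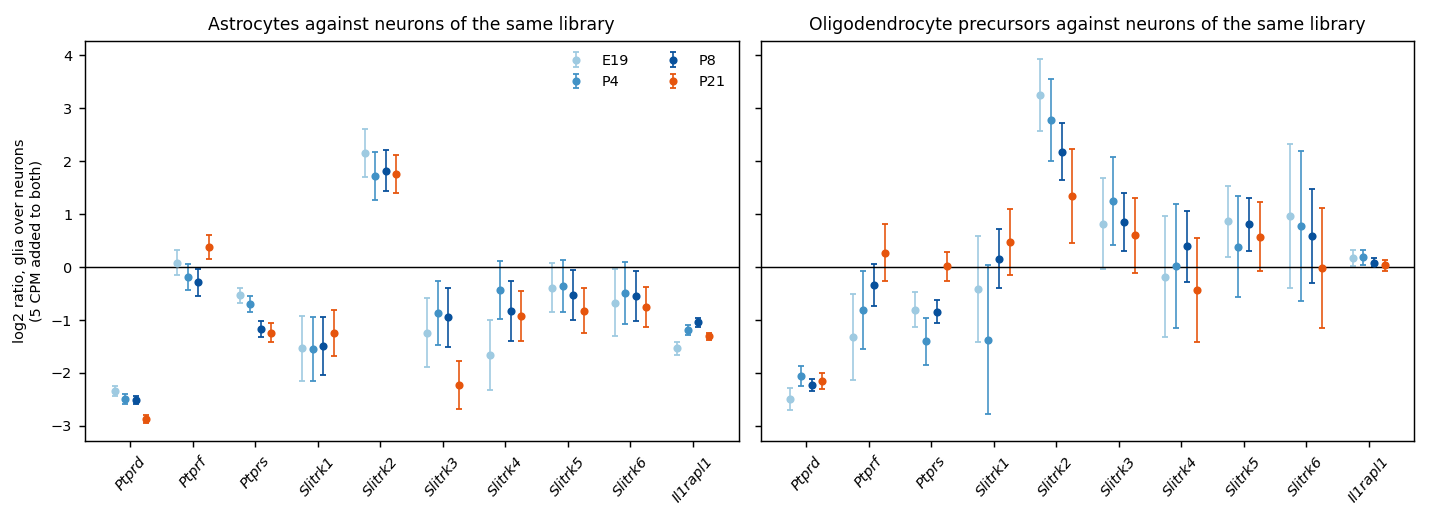
Log2 ratio of CPM in astrocytes (left) and oligodendrocyte precursors (right) over all neurons of the same library for the 10 genes, 1 point per library coloured by stage, with 5 CPM added to both values and 95% counting intervals. Slitrk2 lies above 0 in all 4 libraries of both panels and goes from 3.24 at E19 to 1.34 at P21 in precursors, while Ptprd lies below -2 in all 8 points.

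Astrocytes lost Ptprs as neurons did. The level in astrocytes was 452.4, 379.3, 254.8 and 145.8 CPM at E19, P4, P8 and P21, lower in each later library, with a log2 ratio of -1.60 (-1.83 to -1.38). Protoplasmic astrocytes alone gave 475.8, 425.9, 245.1 and 135.8 CPM. Il1rapl1 went up in the same cells, from 593.8 CPM at E19 to 847.7, 1115 and 1109 CPM, a ratio of 0.90 (0.76 to 1.03). In all, 2 of the 10 genes were higher and 4 lower past the fold in astrocytes, where 47.7% of all genes passed it (14.9% higher and 32.9% lower). Median-of-ratios scaling moved all ratios there up by 0.31, which left 2 higher and 2 lower. The others were Ptprf, at 146.8 and 90.4 CPM in the first and last library, and Slitrk3, Slitrk4 and Slitrk5, with between 3 and 30 UMIs per library and, for Slitrk4, an interval that included 0. Slitrk3, at 7.56 and 1.85 CPM, and Slitrk4, at 4.32 and 10.5 CPM, were below the 20 CPM asked of all genes. Ptprd in astrocytes, at 19.7%, 17.7%, 17.5% and 13.6% of the level in neurons, was close to the summed neuron markers there, at 16.6%, 16.2%, 14.8% and 11.6%; their part in the result was not tested.

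Precursors did not show the fall of Ptprs. In that subtype it measured 372.5, 231.8, 322.0 and 353.9 CPM at E19, P4, P8 and P21, and the P21 value lay above the P4 and P8 values and inside the interval of E19 (290.9 to 469.8). The log2 ratio to neurons of the same library accordingly went from -0.81 at E19 to 0.01 at P21. Myelinating oligodendrocytes had 99.5 CPM at P21, and the class as a whole went from 286.1 CPM at P4 to 161.5 CPM at P21.

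Ptprd was high in myelinating oligodendrocytes. The whole oligodendrocyte lineage measured 900.8, 1158, 1037 and 5642 CPM at E19, P4, P8 and P21, the last value standing far above the others. Precursors stayed at 923.3, 1308, 1212 and 1245 CPM, while committed oligodendrocytes had 651.9 CPM at P8 and 3751 CPM at P21 and myelinating cells 7069 CPM at P21 (6938 to 7202). The P21 level in myelinating cells was above that of excitatory neurons in the same library. These nuclei carried the myelin genes Mbp at 8824 and Mog at 2184 CPM, and the neuron markers Rbfox3, Snap25 and Syt1 summed in the lineage to 9.48% of their level in neurons at P21, against 101.9% for Ptprd. At the 3 earlier stages these markers stood at 19.6%, 20.5% and 24.3% and Ptprd at 17.3%, 21.2% and 18.2% of the neuron level, and the part of the markers in that result was not tested. Without the myelinating subtype the P21 lineage had 2795 CPM. Between P4 and P21, 7 of the 10 genes passed the fold in the lineage, 1 higher and 6 lower, where 60.0% of all genes did (19.9% higher and 40.1% lower). Median-of-ratios scaling moved all ratios of the lineage up by 0.54, which left 1 higher and 2 lower. The myelinating subtype was nearly absent before P21, and without it Ptprs stood at 286.1 CPM at P4 and 285.3 at P21, Slitrk1 at 22.0 and 26.7, Slitrk3 at 61.6 and 43.3 and Slitrk6 at 8.80 and 5.09 CPM. Slitrk2, at 66.0 and 11.5 CPM, and Slitrk4, at 22.0 and 12.7 CPM, were lower at P21 without it as well. The intervals of the ratios of Slitrk1, Slitrk3 and Slitrk6 in the whole lineage included 0. Slitrk6, at 8.80 and 2.975 CPM in the whole lineage, was below the 20 CPM asked of all genes.

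Other classes held few nuclei. In vascular leptomeningeal cells 4 of the 10 genes passed the fold from P4 to P21. Of all genes that reached 20 CPM in either library, 36.8% did. Of the 4, only Ptprd, at 625.4 and 1201 CPM, reached 20 CPM. The other called genes were Slitrk1 (14.2 and 2.18 CPM), Slitrk5 (14.2 and 3.27 CPM) and Slitrk6 (0 and 3.27 CPM), none with more than 10 UMIs in either library. Summed oligodendrocyte markers in the same nuclei were 28.4 CPM at P4 and 615.8 at P21, and in excitatory neurons 58.8 CPM at E19 and 251.7 at P21; their part in these levels was not tested. In microglia Ptprd stood at 10.5%, 11.6%, 13.4% and 20.01% of the neuron level and the summed neuron markers at 11.5%, 16.5%, 18.9% and 21.2%, from between 13 and 33 nuclei per library.

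Of 24 other genes of the pathway, 11 passed the fold from E19 to P21 in excitatory neurons, 2 higher and 9 lower, and 11 in inhibitory neurons, again 2 higher and 9 lower. Over all genes tested the shares were 12.8% higher and 21.5% lower in excitatory and 14.6% and 21.4% in inhibitory neurons. The list median was -0.32 in both classes, beside -0.06 and -0.04 over all genes tested, and 19 of the 24 reached 20 CPM in excitatory neurons. Among 9 postsynaptic ligands, 1 was higher and 5 lower in excitatory neurons, the latter being Lrrc4b, Lrfn1, Lrfn3, Lrfn4 and Nlgn3, and 1 was higher and 4 lower in inhibitory neurons, the same less Nlgn3; of these all but Lrfn4 were named after their values were seen. Il1rap, the relative of Il1rapl1 that also binds Ptprd, rose from 39.1 to 108.9 CPM (log2 ratio 1.37) in excitatory and from 31.7 to 96.3 CPM (1.47) in inhibitory neurons. Lrfn4, a leucine-rich adhesion molecule of the postsynaptic membrane, fell from 24.5 to 8.08 CPM (-1.18) and from 29.7 to 7.87 CPM (-1.43). Lrfn5, of the same family, went from 1649.7 to 1893 CPM in excitatory neurons, within the fold.

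The largest falls of the list were in proteoglycan ligands, of which 3 of 6 fell in excitatory and 4 of 6 in inhibitory neurons. Of all genes that reached 20 CPM, 21.5% and 21.4% fell. The list was not filtered in this way, and 4 of the 6 reached 20 CPM in each class, so the shares are not fully alike. Sdc3, the heparan sulfate proteoglycan syndecan-3, fell from 125.5 to 20.1 CPM (-2.38) in excitatory and from 132.0 to 20.3 CPM (-2.44) in inhibitory neurons. Ncan, the chondroitin sulfate proteoglycan neurocan, fell from 105.8 to 28.2 CPM (-1.74) and from 117.4 to 26.3 CPM (-1.97). Sdc2, another syndecan, rose in inhibitory neurons from 45.3 to 83.3 CPM (0.81) and was 53.3 and 54.0 CPM in excitatory neurons. Acan, which encodes the perineuronal net proteoglycan aggrecan and was singled out after its values were seen, was the second gene higher in excitatory neurons, with 0.867 and 6.23 CPM from 10 and 91 UMIs. Summed astrocyte markers in excitatory neurons were 144.7 CPM at E19 and 65.0 at P21, and their part in the fall of Ncan, which stood at 512.9 and 188.8 CPM in astrocytes, was not tested. Of 9 presynaptic and cytoplasmic partners, 1 was lower in each class and none higher, Caskin1 in excitatory (114.3 to 66.3 CPM) and Ppfibp1 in inhibitory neurons (34.4 to 11.9 CPM), both named after their values were seen. The adaptor Ppfia1 (liprin-alpha-1) was 75.3 and 86.1 CPM in excitatory and 75.7 and 95.8 CPM in inhibitory neurons.

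The genes whose level followed each member most closely over the 25 neuron subtypes were looked up among 8871 genes. The measure was the Pearson correlation of log2(CPM + 5) over subtypes that share libraries. Levels were those over nuclei of all libraries, and subtypes differ in their mix of stages. Of the 226 EN7 nuclei 191 were from P4, and of the 469 IN3 nuclei 215 were from P8 and 126 from P21. Ptprf, lowest at P21 in both neuron classes, was highest in EN7 and lowest in IN3. The part of stage in these correlations was not tested. For Ptprd these were Adcy6, an adenylyl cyclase (0.73), and Calb1, the calcium-binding protein calbindin (0.67), and for Ptprf they were Rubcn (0.89) and Arhgdig (0.82). Ptprs came with Pabpc4 (0.76) and Thap3 (0.72), and Il1rapl1 with Washc5 (0.72) and Rhobtb2 (0.70). Among the Slitrk genes the pairs were Nr6a1 (0.67) and Zfp507 (0.66) for Slitrk1, P3h2 (0.67) and 4930452B06Rik (0.65) for Slitrk2, and 4930509J09Rik (0.79) and Gm20754 (0.77) for Slitrk3. Slitrk4 came with 2310022A10Rik (0.74) and Ube2z (0.69), and Slitrk5 with Bicd1 (0.74) and Clec2l (0.69). None of these genes appeared for more than 1 member, and Slitrk6, with 299 UMIs in all neurons, was not compared. Each named gene was picked as highest among 8871 genes over only 25 subtypes. How high such picked values run for unrelated genes was not tested. The names, and the lack of a shared name, are therefore a description and do not show partners of a member.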

How the data were processed

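Per the labels' protocols, nuclei were purified through a sucrose cushion and loaded on a 10x Genomics instrument with 3′ v3 reagents. Cell Ranger 3.0.2 and mm10 are named in the submitters' processing notes. The deposited matrix holds raw UMI counts per gene and nucleus, not normalised, for all libraries together. Stage, class and subtype came from the deposited table of nuclei, and its UMI totals matched the matrix in 9724 nuclei; 10 further columns of per-nucleus values were not used. For the annotation release, filters, doublets and class naming, the methods are not given in the sources used here; no further filter was applied here.

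UMIs were summed per library and class or subtype and scaled to CPM (Python 3.11.15, numpy 2.4.6, scipy 1.17.1, pandas 2.3.3). No test was made, since each stage is 1 library; the fold script was tested on simulated data. Subtypes entered with at least 20 nuclei. Gene positions are from GENCODE M21 on GRCm38 and promoters from RefSeq (GRCm38.p6). Coordinates are 1-based. The 10 genes, the 24 partners and the marker lists were chosen with earlier results of these data known. Named in the text were all 10 genes; of the partners, the 3 largest rises and falls per neuron class among those reaching 20 CPM at either stage; and, for each of the 10 with at least 500 UMIs in neurons, the 2 genes of highest correlation. Partners outside this rule are marked where named. Subtypes described singly were picked after their values were seen. Alternatives were the pseudocount, the weighting of nuclei or subtypes, thinning to 3000 UMIs, median-of-ratios scaling, the fold, and leaving out EN7 or a library.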

Additional observations from a re-analysis of the deposited data

Results flagged for a closer look

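Ptprd was higher at P21 than at E19 in excitatory neurons (log2 ratio 0.23) and lower in inhibitory neurons (-0.089) and astrocytes (-0.44). Each class had 1 library per stage, and the difference between the classes was not tested. The inhibitory value changed sign to 0.03 under median-of-ratios scaling, which moved all astrocyte ratios up by 0.31. Ptprd in astrocytes was close to the summed neuron markers there, as given above, and their part in it was not tested.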

How the results depend on the processing

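The counts of called genes depended mainly on the fold. With a fold of 2 the 3 called members became 1 in excitatory and 0 in inhibitory neurons, and the 11 called partners in excitatory neurons became 5. A pseudocount of 1 CPM gave 4 called members in excitatory neurons, with Slitrk2 (0.64) added, and weighting subtypes alike gave 2. A pseudocount of 20 CPM left 7 of the 11 called partners in inhibitory neurons. Over astrocytes, the oligodendrocyte lineage and vascular leptomeningeal cells together, 17 calls became 9 with a pseudocount of 20 CPM, 11 under median-of-ratios scaling and 6 with a fold of 2. The cause was not tested. No member passed the fold between inhibitory and excitatory neurons in the 4 libraries or with any 1 of them left out (0 to 0). Among the 20 log2 ratios of the 10 genes in both neuron classes, 20 moved by less than their counting error with a pseudocount of 1 CPM, 14 with nuclei thinned to 3000 UMIs and 13 under median-of-ratios scaling. Depth limits Slitrk6, with 299 UMIs in all neurons, and Slitrk2, with 526. No paired analysis was possible because each stage is 1 library, so that stages share no pair of replicate numbers.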

Other observations

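In dividing cells Il1rapl1 measured 957.1, 1447, 2275 and 2763 CPM at E19, P4, P8 and P21, from 36, 25, 35 and 10 nuclei, which was 55.4%, 74.4%, 98.6% and 100.2% of the neuron level where summed neuron markers stood at 14.3%, 17.7%, 16.8% and 14.3%. In vascular leptomeningeal cells it was at 14.8% of the neuron level at P4 and 10.4% at P21, near the neuron markers there (9.66% and 9.69%); their part in it was not tested. The dividing cells were close to the oligodendrocyte precursors of the same libraries from P8 on, at 2443 and 2818 CPM. In myelinating oligodendrocytes Il1rapl1 stood at 1583 CPM at P21, below the 2530 CPM of committed oligodendrocytes, while Ptprd was the higher in myelinating cells. Precursors also carried Slitrk5 at 57.2 CPM (44.4 to 72.7) and Slitrk1 at 40.1 CPM over all libraries.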
